A study of Mus musculus with 4 samples.

Results

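Psap encodes prosaposin, the precursor of the saposins. Its transcripts were followed here in ribosome footprint libraries of neurons and astrocytes from the mouse brain. The 4 transcripts are ENSMUST00000004316, ENSMUST00000105465, ENSMUST00000177779 and ENSMUST00000179238, out of 23175 transcripts counted in at least 1 library. They were chosen by ID because region a of each, relative to its region b, was lower in neuron than in astrocyte libraries in an earlier pass over these same counts. Everything said below about the contrast of the cell types is therefore a description. Fits over all transcripts are used for their estimates, and their calls are given as background and support nothing about Psap. That these IDs are Psap comes from the selection, since the count files hold no gene names and the gene tables at hand list 0 transcript IDs.

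The animals were C57BL/6J mice at postnatal day 21, and whole brains were used. In Snap25::eGFP-RpL10a mice the GFP-tagged ribosomal protein is driven in neurons, and in Aldh1l1::eGFP-RpL10a mice in astrocytes, so both groups carry a tagged ribosome and differ in the promoter that drives it. Tagged ribosomes were pulled down with anti-GFP antibodies in the presence of cycloheximide, their RNA was trimmed with RNase I on the beads, and the protected fragments were sequenced. There were 2 libraries per cell type, each from a pool of 2 brains, and the libraries held 7210269 to 12833187 counts. Because the files carry no gene names, the libraries could not be checked against Snap25, Aldh1l1 or other markers. In such samples, more cells of a type and more ribosomes per cell on a transcript cannot be told apart.

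Prosaposin passes through the secretory pathway to the lysosome, where proteases cut it into saposins A, B, C and D. These small proteins present sphingolipids to the hydrolases that degrade them, and loss of the precursor causes a lysosomal storage disease with severe damage to the nervous system. Uncleaved prosaposin is also secreted and has been described as a trophic factor for neurons and glia. Upstream of the coding sequence of an mRNA lies its leader. Ribosomes found there can mark upstream reading frames or starts at an earlier codon.

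Each transcript is split in the files into up to 4 regions with the letters a, b, c and d. The sources used here do not say what the letters stand for. Region b holds most counts and is read here as the main coding sequence, and region a as the leader upstream of it. No region lengths are given, so the counts are not divided by length. A level below is a count scaled to a common library total (CPM), and the a to b ratio is given as region a counts in percent of region b counts.

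Psap was among the most heavily counted transcripts of both cell types. Region b of ENSMUST00000004316 had 23833 and 27049 counts in astrocyte 1 and 2. It had 22660 and 26569 counts in neuron 1 and 2. In order of region b counts it ranked 11 in both astrocyte libraries, 2 in neuron 1 and 4 in neuron 2. Over all libraries together the Psap transcripts held ranks 3 to 6. The rank is a rank of counts and not of ribosome density.

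Scaled to the library, region b of ENSMUST00000004316 stood at 3268 and 3395 CPM in the astrocyte libraries, 3143 CPM in neuron 1 and 2070 CPM in neuron 2. Neuron 2 was the low library, and the others were alike. Neuron 2 also had the largest total, 12833187 counts, against 7210269 to 7968406 in the other libraries. The means of the pairs were 3331 ± 89.5 CPM for astrocytes and 2607 ± 758 CPM for neurons (SD, n = 2 each), a difference of 724.7 CPM that is smaller than the neuron SD. Neuron 1 exceeded neuron 2 by 1.52-fold, while astrocyte 1 exceeded neuron 1 by only 1.04-fold. The groups did not overlap, but the lowest astrocyte and the highest neuron library lay close together. How many other transcripts have groups without overlap was not counted, here or for the measures below.

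**Figure D1:**
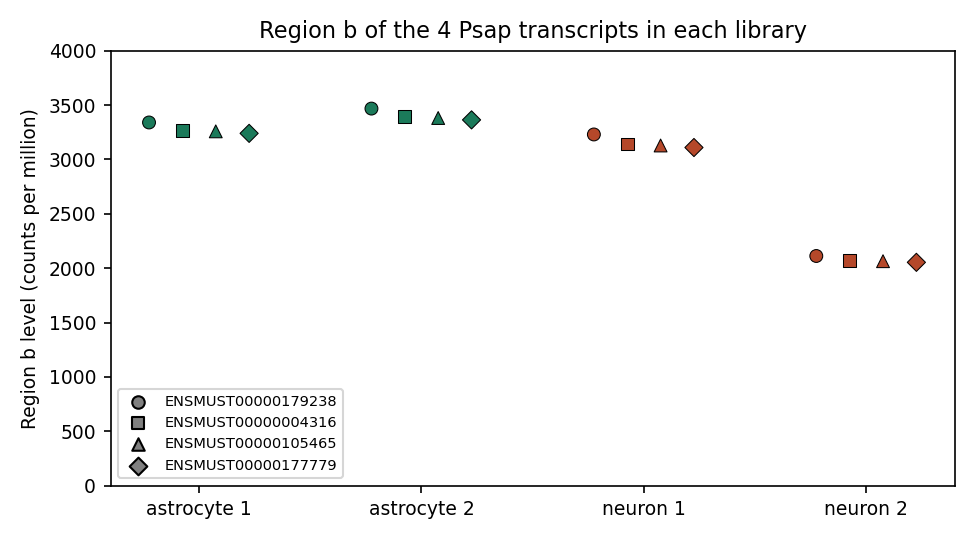
Region b level in CPM (y axis) of the 4 Psap transcripts in each of the 4 libraries (x axis). Each point is 1 transcript in 1 library, green for astrocyte and red for neuron libraries. All transcripts fall together in neuron 2, from 2054 to 2112 CPM, and lie between 3110 and 3468 CPM in the other libraries.

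In a fit over 18161 transcripts the region b level of ENSMUST00000004316 was -0.49 on the log2 scale, neuron over astrocyte (SE 0.25). The other transcripts gave -0.49 each. The same fit had 2865 transcripts past an adjusted p of 0.05 (15.8% of those tested), 12.3% of those tested being higher in astrocyte samples, and 0 of the 4 Psap transcripts were among them. At an unadjusted p under 0.05 the edgeR fit held 0 of the 4 and 5574 of all transcripts. Without the filter on low counts edgeR held 4 of 4 and 6134 of 22218 at that level, and DESeq2 held 4 of 4 and 4284 of 18161, while both had 0 of 4 after adjustment. The calls split into 633 toward neurons and 2232 toward astrocytes, or 1230 and 1915 when TMM factors were left out. Leaving them out moved the median of all transcripts from 0.03 to 0.16 and the Psap value to -0.37, so Psap stayed below the median by a like amount. The estimate followed single neuron libraries: it was -0.85 without neuron 1 and -0.20 without neuron 2. With a single neuron library the spread comes from the astrocyte pair alone, and calls were common: 8411 of 18661 and 5926 of 18561 transcripts passed in these fits, the 4 Psap transcripts among them. Over all transcripts, neuron 1 also lay nearer to the astrocyte libraries than neuron 2 did, with SDs of the log2 CPM differences of 0.656 and 0.682 against 0.813 and 0.85, and the part of this in the Psap level was not tested.

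The 4 transcripts differed little from one another in region b. ENSMUST00000179238 had 24361, 27635, 23290 and 27108 counts in astrocyte 1, astrocyte 2, neuron 1 and neuron 2. ENSMUST00000105465 had 23766, 26945, 22559 and 26495 counts in the same order. ENSMUST00000177779 was lowest, with 23631, 26807, 22424 and 26360 counts. The order from ENSMUST00000179238 through ENSMUST00000004316 and ENSMUST00000105465 to ENSMUST00000177779 was the same in all 4 libraries. The highest exceeded the lowest by 730 and 828 counts in astrocyte 1 and 2, 866 in neuron 1 and 748 in neuron 2. The last 2 are 3.72% and 2.76% of the highest count. The lines are thus nearly the same measurement printed 4 times, and they are not replicates. Summed as if separate, they took 1.32% and 1.37% of the astrocyte counts, 1.27% of neuron 1 and 0.833% of neuron 2.

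The small differences between neighbours in that order describe where the transcripts part. If the fragments of the lower transcript are all among those of the higher one, which the files do not state, each difference counts fragments found only in the higher one. ENSMUST00000179238 exceeded ENSMUST00000004316 by 528 and 586 counts in the astrocyte libraries, and by 630 and 539 counts in neuron 1 and 2. As shares of the higher transcript these are 2.17%, 2.12%, 2.71% and 1.99%. Neuron 1 was the highest library and neuron 2 the lowest, so the cell types overlapped. The 95% exact binomial interval of neuron 1, 2.5% to 2.92%, lay above those of the other libraries, the highest of which ended at 2.36%.

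ENSMUST00000004316 exceeded ENSMUST00000105465 by 67, 104, 101 and 74 counts in astrocyte 1, astrocyte 2, neuron 1 and neuron 2, or 0.281%, 0.384%, 0.446% and 0.279% of its counts. ENSMUST00000105465 exceeded ENSMUST00000177779 by 135, 138, 135 and 135 counts, or 0.568%, 0.512%, 0.598% and 0.510%. Neither step set the cell types apart. The mean shares of the first were 0.333% ± 0.0731 for astrocytes and 0.362% ± 0.118 for neurons, and those of the second were 0.540% ± 0.0395 and 0.554% ± 0.0629 (SD, n = 2 each).

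**Figure D2:**
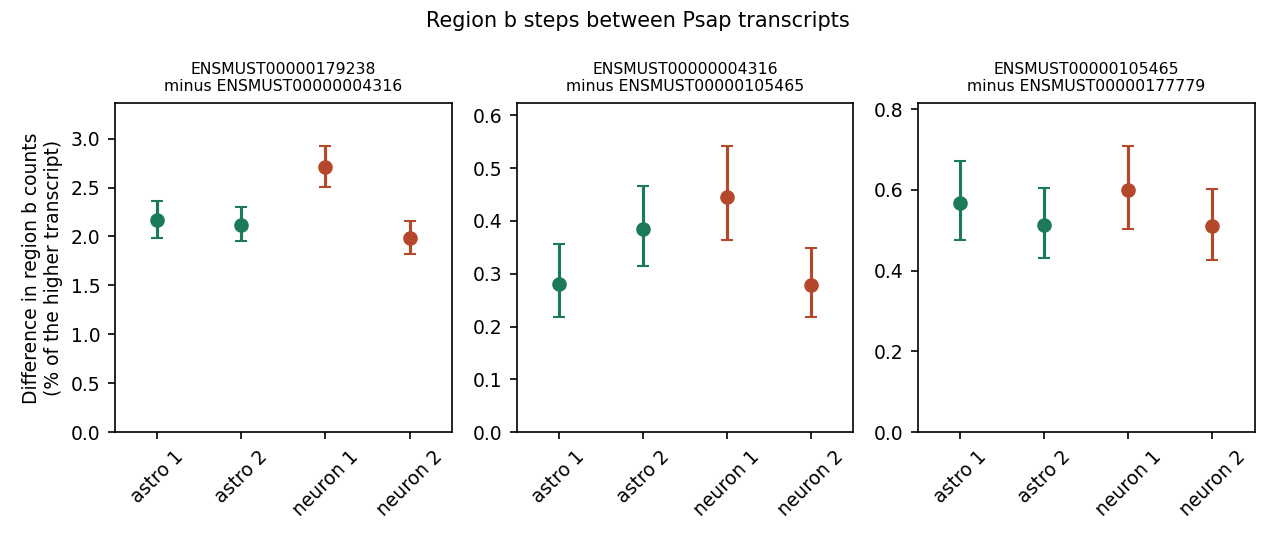
Difference in region b counts between Psap transcripts that are neighbours in level, in percent of the higher one (y axes, each panel with its own scale), by library (x axis). Bars are 95% exact binomial intervals for counting error, green for astrocyte and red for neuron libraries. In each panel the neuron pair spans or overlaps the astrocyte pair, and in the left panel neuron 1 stands highest at 2.71%.

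Region a was shared. In each library all 4 transcripts had the same region a count, 157 and 158 in the astrocyte libraries against 76 and 69 in the neuron libraries, each time in the order of replicates 1 and 2. Exactly 4 transcripts of the whole series had these counts in all libraries, and they are the Psap transcripts. So Psap offers 1 measurement of region a per library, with 460 counts over all libraries. The 95% exact Poisson intervals were 133.4 to 183.6 and 134.3 to 184.6 counts in the astrocyte libraries, against 59.9 to 95.1 and 53.7 to 87.3 counts in neuron 1 and 2. These intervals cover counting error only and are not scaled to the library totals.

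Scaled to the library, region a stood at 21.5 and 19.8 CPM in the astrocyte libraries, 10.5 CPM in neuron 1 and 5.38 CPM in neuron 2. Every astrocyte library was above every neuron library. Here neuron 1, which resembled the astrocyte libraries in region b, did not resemble them: astrocyte 1 and 2 exceeded it by 2.04-fold and 1.88-fold in region a CPM. Neuron 1 in turn exceeded neuron 2 by 1.96-fold. The means were 20.7 ± 1.2 CPM for astrocytes and 7.96 ± 3.65 CPM for neurons (SD, n = 2 each).

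Relative to region b of ENSMUST00000004316, region a came to 0.659% and 0.584% in the astrocyte libraries, against 0.335% and 0.260% in the neuron libraries. The means were 0.621% ± 0.0528 for astrocytes and 0.298% ± 0.0535 for neurons (SD, n = 2 each), 2.09-fold apart. In other words, 1 region a count stood against 151.8 and 171.2 region b counts in the astrocyte libraries and against 298.2 and 385.1 in neuron 1 and 2. The groups did not overlap, and their difference of 0.324 percentage points was larger than the spread within either pair. The transcripts were chosen for this contrast, and the share of all transcripts separated in this way was not counted. Taken as a share of region a and b counts together, the 95% exact binomial intervals were 0.556% to 0.765% and 0.494% to 0.678% in the astrocyte libraries. In neuron 1 and 2 they were 0.263% to 0.418% and 0.202% to 0.328%. The intervals overlapped within each cell type and did not overlap between them. They cover counting error within a library only, and their separation restates the contrast for which the transcripts were chosen.

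**Figure D3:**
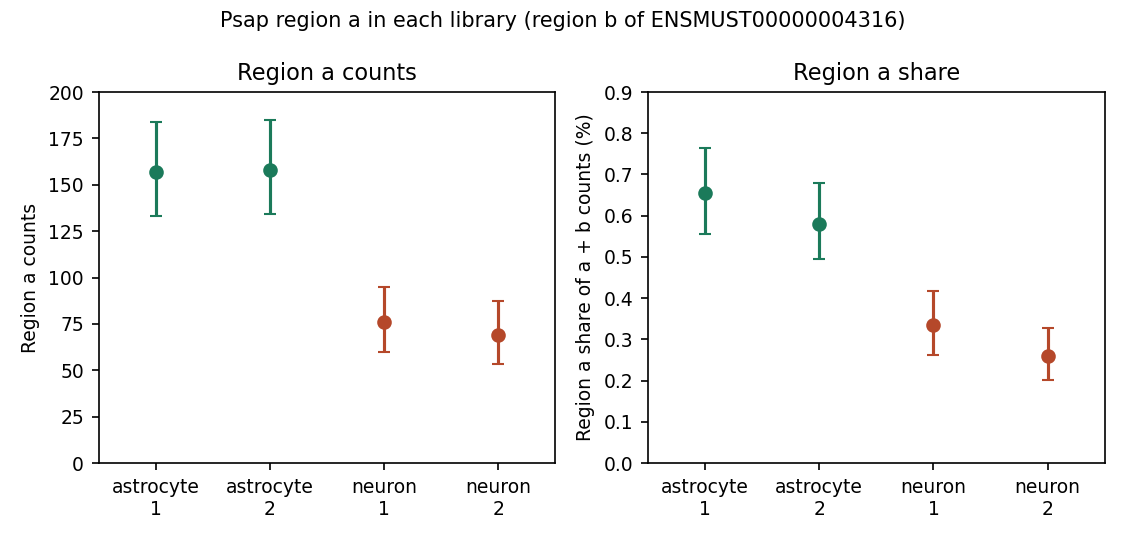
Psap region a counts (left, y axis) and region a in percent of region a and b counts of ENSMUST00000004316 (right, y axis) in each library (x axis). Points are single libraries, green for astrocyte and red for neuron, and bars are 95% exact Poisson (left) and exact binomial (right) intervals for counting error. Both astrocyte libraries lie above both neuron libraries in both panels, with shares of 0.654% and 0.581% against 0.334% and 0.259%.

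The other 3 transcripts repeat this pattern because they share region a and nearly share region b. Region a in percent of region b was 0.661%, 0.586%, 0.337% and 0.260% for ENSMUST00000105465 in astrocyte 1, astrocyte 2, neuron 1 and neuron 2. It was 0.664%, 0.589%, 0.339% and 0.262% for ENSMUST00000177779. ENSMUST00000179238 had the lowest values, 0.644%, 0.572%, 0.326% and 0.255%. The choice of transcript thus moved the ratio far less than the library did.

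With the 315 region a and 50882 region b counts of the astrocyte pair summed, the ratio was 0.619%, and with the 145 and 49229 counts of the neuron pair it was 0.295%. At the summed astrocyte ratio, the region b counts of neuron 1 and 2 would carry 140.3 and 164.5 region a counts. The libraries held 76 and 69. This gap restates the contrast for which the transcripts were chosen. It also takes no account of the lower ratio of all transcripts in neuron libraries. Over all transcripts, region a came to 8.49% and 9.01% of region b in astrocyte 1 and 2, and to 7.57% and 7.29% in neuron 1 and 2.

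In a fit over the region a and b counts of 8778 transcripts, the log2 change of the ratio was -1.07 for ENSMUST00000004316, neuron over astrocyte (SE 0.222). It was -1.07 for each of the other transcripts too. The median over all 8778 transcripts was -0.21, so much of the series shared the direction, and 369 transcripts (4.20%) had a lower value than ENSMUST00000004316. The 4 Psap transcripts were among the 95 transcripts past an adjusted p of 0.05, which is 1.08% of those tested, and among the 1.01% that were higher in astrocyte samples. The transcripts were chosen for this ratio, so the call supports nothing about Psap. Because the 4 share region a and nearly share region b, it is 1 measurement, not 4. With each region scaled to its own total the 95 calls, 89 of them toward astrocytes, became 12, 9 of them toward astrocytes, and the median moved to 0.03.

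The size of the change was steadier than its call. It lay between -1.25 and -0.89 with any 1 library left out, at -1.07 with DESeq2 and at -0.83 with each region scaled to its own library total, a scaling that removes a shift common to the region. The share of transcripts with a lower value than ENSMUST00000004316, given above as 4.20%, was less steady. It was 15.0% without the filter on low counts and 2.14% with a mean of at least 20 counts in both regions. With 1 library left out this share lay between 5.32% and 14.4%. The Psap transcripts were not among the calls with DESeq2, with each region's own total, without astrocyte 1 or without astrocyte 2, fits that called 11, 12, 1 and 2 transcripts in all. With each region scaled to its own total, region a came to 0.619% and 0.517% of region b in the astrocyte libraries, against 0.353% and 0.284% in the neuron libraries.

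The Psap ratio was low in both cell types. The comparison set was 7378 other transcripts whose region b counts summed to 1000 or more. Their median ratio was 4.47% and 4.70% in the astrocyte libraries, against 4.01% and 3.84% in the neuron libraries. Psap lay above only 15.1% and 14.7% of these transcripts in the astrocyte libraries, and above 12.4% and 9.88% in neuron 1 and 2. Of the 29 other transcripts with a region b total of at least 50% of that of ENSMUST00000177779, 4 had a ratio below that of Psap over all libraries, and their median was 6.64%. Psap thus combined very high region b counts with few region a counts. Leader lengths differ between genes and are not in the files, so this is no comparison of ribosome density.

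**Figure D4:**
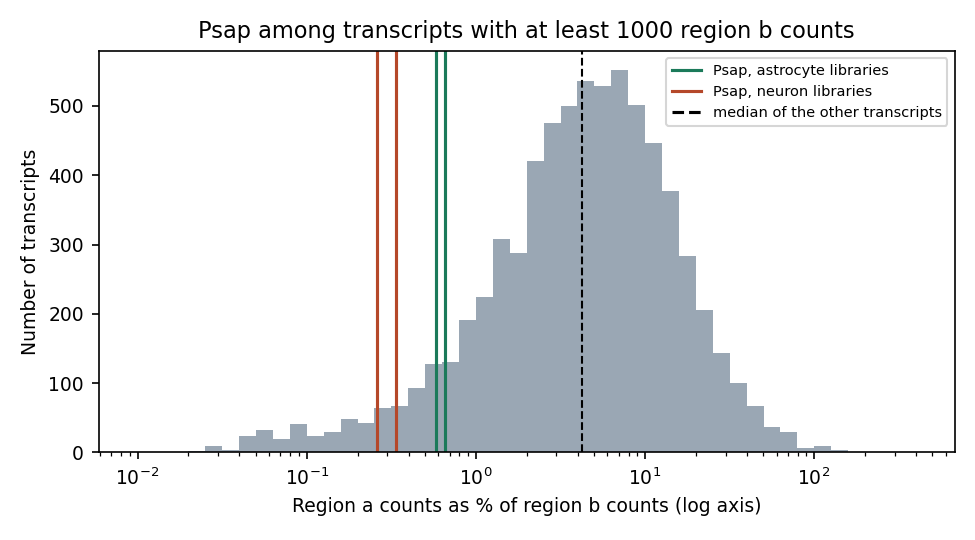
Number of transcripts (y axis) by region a counts in percent of region b counts, summed over the 4 libraries (x axis, log scale), for the 7378 other transcripts whose region b counts summed to 1000 or more; 382 of them with no region a count are not drawn. Vertical lines mark Psap (ENSMUST00000004316) in each astrocyte library (green) and each neuron library (red), and the dashed line marks the median of 4.24%. All 4 Psap values, from 0.260% to 0.659%, lie in the left tail, the neuron libraries farther out.

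Seen as part of all region a counts, Psap took 0.0277% and 0.0242% in astrocyte 1 and 2, 0.0151% in neuron 1 and 0.00797% in neuron 2. Its region b took 0.357% and 0.373% of all region b counts in the astrocyte libraries, 0.341% in neuron 1 and 0.224% in neuron 2. Astrocyte means exceeded neuron means by 2.25-fold in the first measure and by 1.29-fold in the second. The transcripts were chosen for this difference between the regions, so the wider gap in region a restates the choice.

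Regions c and d held few counts and were identical in all 4 transcripts. The order of the letters places them after region b, which would be past the stop codon, but no source states this. Region c had 9 and 4 counts in astrocyte 1 and 2, 0 in neuron 1 and 4 in neuron 2. As a one-sided limit the count of 0 allows up to 3 counts, or 0.0132% of region b of ENSMUST00000004316. The two-sided 95% exact Poisson intervals were 4.12 to 17.1 and 1.09 to 10.2 counts in astrocyte 1 and 2, 0 to 3.69 counts in neuron 1 and 1.09 to 10.2 counts in neuron 2. Those of astrocyte 1 and neuron 1 did not overlap, and all other pairs did. Region c amounted to 0.0263% ± 0.0162 of region b for astrocytes and 0.00753% ± 0.0106 for neurons (SD, n = 2 each), and astrocyte 2 and neuron 2 had the same count, so the groups overlapped. Region d had 9 and 10 counts in the astrocyte libraries and 10 and 7 in neuron 1 and 2.

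Region d amounted to 0.0374% ± 0.000561 of region b for astrocytes and 0.0352% ± 0.0126 for neurons (SD, n = 2 each). Over all libraries, the 17 region c and 36 region d counts were 0.0170% and 0.0360% of region b, against medians of 0.0389% and 0.0944% over the same 7378 transcripts. Region a is therefore the Psap region outside region b with enough counts to compare libraries.

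Another transcript tracked region b of Psap closely. ENSMUST00000165878, named after its values were seen and given no gene name in the files, had 23189, 26260, 21974 and 25756 region b counts in astrocyte 1, astrocyte 2, neuron 1 and neuron 2. These are 97.7% to 98.1% of the counts of ENSMUST00000177779. Its region c and d counts were identical to those of Psap in every library. Only 5 transcripts of the series had these region c and d counts in all libraries, the 4 Psap transcripts and this one. Its region a counts were 0, 0, 0 and 1, against 157, 158, 76 and 69 for Psap. No source used here says whether it is also a Psap transcript. It is counted above among the other transcripts, as 1 of the 4 with a ratio below that of Psap, and may not be independent of Psap. The next transcript in likeness of region b was far less alike, at a distance of 1.03 against 0.0858 in log2 CPM over the 4 libraries.

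By a rule that joins ratio and level over the 4 libraries, the nearest of 5463 transcripts with at least 100 region a counts were ENSMUST00000039144 and ENSMUST00000041318. Likeness was the Euclidean distance over 8 values, the log2 ratio and the region b log2 CPM in each library, and came to 2.97 and 3.05. ENSMUST00000039144 had a ratio of 0.656% and 0.751% in the astrocyte libraries, against 1.04% and 0.863% in the neuron libraries, with region b between 1355 and 2157 CPM. ENSMUST00000041318 had a ratio of 0.402% and 0.581% in the astrocyte libraries and of 0.623% and 0.483% in neuron 1 and 2. Psap had 0.659% and 0.584% in astrocyte 1 and 2, so ENSMUST00000039144 was near it in astrocyte 1 and ENSMUST00000041318 in astrocyte 2. Both were lower than Psap in region b, ENSMUST00000041318 at 1015 to 1448 CPM. Neither had the lower ratio in neuron libraries for which Psap was chosen. This rule thus found no close match in ratio and level together. A fall of the ratio alone was not particular to Psap: 369 of the 8778 transcripts in the ratio fit had a lower value than ENSMUST00000004316.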

How the data were processed

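Footprints were counted in 2 astrocyte and 2 neuron libraries. The deposited values are whole-number counts, 1 per region of a transcript, and look unnormalized. A region without a line was read as 0. The submitters' processing notes name the aligners STAR 2.3.1z8 and Bowtie2 2.2.2, the trimmer Trimmomatic 0.32, FastQC 0.11.2, edgeR and bedtools, without saying what each did. Not given in the sources used here are the build, annotation and strand setting, nor how fragments matching more than 1 transcript were counted, so a fragment may enter several lines.

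Both comparisons were fitted over all transcripts with edgeR 4.0.16 in R 4.3.3 (quasi-likelihood F test, filterByExpr with a minimum count of 10, Benjamini-Hochberg adjustment, threshold 0.05). Region b levels used TMM factors. The ratio fit had a term for each library, one for region and one for region by cell type, with 1 library total for both regions. SE was taken from the log2 change and its F value. DESeq2 1.42.0 was an alternative. On simulated counts with known changes the estimates were recovered, but the ratio fit mostly made more false calls than its threshold allows, so its calls serve as background. Intervals are 95% exact (SciPy 1.17.1).

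The transcripts and lists were chosen with earlier results of these data known. Named beside the 4 transcripts are the 2 nearest by the likeness rule (0.5 added to both counts of the ratio, prior count 2 for CPM). Nothing says that replicates came from separate litters or days, so spread is between pools. Lists of saposin pathway and cell type marker genes need gene names and were not used. Sequences of Psap are not printed.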

Additional observations from a re-analysis of the deposited data

How the results depend on the processing

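The Psap ratio and level kept their direction in every alternative run, but this is a weak check. Because the groups did not overlap in either, leaving out 1 library could not reverse it. The other settings refitted the same libraries, and the ratio is what the transcripts were chosen for. Scaling each region to its own total moved the ratio by more than 1 replicate SD, from -1.07 to -0.83 on the log2 scale, and the difference in percentage points from 0.324 to 0.249. With 1 library left out, the ratio ranged from -1.25 to -0.89, the difference from 0.286 to 0.362 percentage points and the region b level from -0.85 to -0.20. Transcripts with a changed ratio numbered 11 with DESeq2 and 12 under that scaling, against 95, and 1 to 207 with 1 library left out. Those with a changed region b level ranged from 1616 to 8411 under the same omissions, against 2865. The cause was not tested. Numbers 1 and 2 are used in either group, yet nothing in the labels pairs the libraries by them. Libraries of equal number deviated from their group means with a correlation of -0.085 across 18161 transcripts. The replicate block gave -1.07 for the ratio, -0.53 for the level, and 84 and 3129 calls. Depth limits regions c and d, with 17 and 36 counts.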
